A study of Mus musculus with 6 samples.

Results

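To describe how blood and lymphatic vessels differed between colitis mice given berberine (BBR) and colitis mice given sulfasalazine (SASP), 35 endothelial genes were followed among the 18268 genes of the deposited expression table. The members were chosen by gene symbol with earlier results of these data known, and all 35 were listed. They hold the defining markers of blood endothelium, the receptors and ligands of vessel growth, endothelial transcription factors, the adhesion molecules that hold leukocytes and the markers of lymphatic vessels. All 6 animals were C57BL/6 mice that had taken DSS (dextran sulfate sodium), which damages the bowel epithelium, for 7 days, and the study describes them as adult males. By gavage, 3 of them received BBR, a plant alkaloid, and 3 received SASP, an aminosalicylate prodrug used in ulcerative colitis, for 6 days each. Colorectal tissue was taken as a whole and not sorted. No healthy or untreated group entered the comparison, so each difference is between the 2 drug groups. The study compared the drugs at unlike doses, and its text speaks of rectal samples for BBR and colon samples for SASP. Dose, and site where it differed, cannot be told apart from the drug here. Mice are called BBR mice 1 to 3 and SASP mice 1 to 3 in the order of deposit, which pairs no animals.

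Endothelial cells line every vessel, and they are held together by junction proteins such as VE-cadherin and PECAM-1. Vessel growth is driven by VEGF and angiopoietins acting on receptor kinases of the VEGF receptor and Tie families. During inflammation, endothelium stimulated by cytokines displays selectins, which slow leukocytes in the flow, and then ICAM-1 and VCAM-1, which hold them by their integrins. Lymphatic vessels carry fluid and immune cells out of the gut wall and guide dendritic cells with the chemokine CCL21.

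Icam1 went against most of the other endothelial genes. It was lower under BBR, at 2.09 ± 0.249 FPKM against 8.27 ± 1.01 FPKM under SASP (SD, n = 3 each), and it kept this call in all 12 alternative fits. Emcn, an endothelial sialomucin, and Mmrn1, which is made by lymphatic endothelium, were higher under BBR, at 2.28 and 2.63 times their SASP means. The other 16 tested members did not pass the threshold, and for 15 of them the estimate was above 0. FPKM are fragment counts scaled to transcript length and sequencing depth, so that levels can be set beside each other between genes. In whole tissue, fewer cells of a type and less RNA per cell cannot be told apart.

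The sequences upstream of these 3 genes are shown because they are the members that passed the threshold, and they differ in motif content. They are the 250 bases before the RefSeq start site on build GRCm38.p6, all on the plus strand, at chr9:21015690-21015939 for Icam1, chr3:137340828-137341077 for Emcn and chr6:60944067-60944316 for Mmrn1. Capitals mark matches, on either strand, to GGNNNTTCC (an NF-kB type sequence), TTCNNNGAA (the GAS sequence read by STAT factors) or AGGAAG (an ETS type sequence).
Icam1: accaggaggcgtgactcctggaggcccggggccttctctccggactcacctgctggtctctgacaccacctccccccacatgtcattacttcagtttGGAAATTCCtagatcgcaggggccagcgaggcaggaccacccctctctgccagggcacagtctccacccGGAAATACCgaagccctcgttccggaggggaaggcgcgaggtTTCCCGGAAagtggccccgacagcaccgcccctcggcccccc
Emcn: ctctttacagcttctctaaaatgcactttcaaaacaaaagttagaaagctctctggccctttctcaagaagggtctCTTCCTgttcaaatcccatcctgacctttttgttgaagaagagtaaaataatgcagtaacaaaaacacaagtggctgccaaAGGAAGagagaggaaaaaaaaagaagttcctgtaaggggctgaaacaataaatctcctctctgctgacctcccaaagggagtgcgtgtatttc
Mmrn1: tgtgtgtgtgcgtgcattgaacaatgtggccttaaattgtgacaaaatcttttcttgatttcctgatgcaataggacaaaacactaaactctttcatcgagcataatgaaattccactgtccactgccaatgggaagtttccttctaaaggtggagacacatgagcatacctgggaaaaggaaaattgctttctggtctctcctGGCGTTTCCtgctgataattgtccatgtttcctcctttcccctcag

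Upstream of Icam1, the NF-kB type match GGAAATTCC began at position -153 from the start site and fits the pattern on both strands. A further match of this type, GGAAATACC, began at -84, and the GAS match TTCCCGGAA at -42. Upstream of Emcn there were 2 ETS matches, CTTCCT at -174 and AGGAAG at -93, and Mmrn1 had the NF-kB type match GGCGTTTCC at -46. Of 32851 mouse promoters of this length, 15.7% held an NF-kB type match, 7.02% a GAS match and 29.5% an ETS match. Promoters were matched for 19 of the 35 members, of which 8, 2 and 12 held these matches, some with several start sites. Vcam1, Pecam1 and Lyve1 were among those not matched. A match describes the letters and was not tested as a binding site.

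Levels of endothelial genes were low in this tissue, as 33 of the 35 had a mean under 10 FPKM over all mice. Genes at 1 FPKM or more in at least 3 of the 6 mice were tested, which left 19 members in the test and 16 below this filter. For 4 of the 19 (Flt1, Flt4, Tek and Tie1) the BBR group alone was at 1 FPKM or more throughout. Tests were made with limma on log2(FPKM + 1) over all 12072 genes that met the filter, with Benjamini-Hochberg adjusted p-values and a threshold of 0.05. Of all tested genes, 3.82% were called higher and 5.04% lower under BBR, 8.86% in all. Among the 19 tested members 2 were called higher (10.5%) and 1 lower (5.26%), so that the share called lower was near that of all genes. The median log2 fold change (BBR minus SASP) was 0.51 for the tested members and 0.10 for all tested genes. Over all 35 members without the filter it was 0.36, against 0.06 for the 18260 genes above 0 in a mouse.

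The BBR mice all exceeded the SASP mice in 18 of the 35 members (51.4%), against 18.5% of all listed genes. In 2 members, Icam1 and Vcam1 (5.71%), all BBR values lay below all SASP values, against 12.2% of listed genes. The groups overlapped in the other 15. BBR mouse 2 held the highest value of 28 members, BBR mouse 3 of 4, BBR mouse 1 of 1 and a SASP mouse of 2. The share of all listed genes with their highest value in BBR mouse 2 was not computed. This mouse was also highest in 42 of 62 other vessel genes, 6 of 8 fibroblast markers and 5 of 5 mesothelial markers. It was highest in 1 of 11 smooth muscle markers and 0 of 7 epithelial markers. At an unadjusted limma p of at most 0.05, 9 tested members (47.4%) were higher and 2 (10.5%) lower, where 18.4% and 13.4% of all tested genes were. The 9 include Flt4 and Tek, in which the BBR group alone was at 1 FPKM or more throughout.

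**Figure D1:**
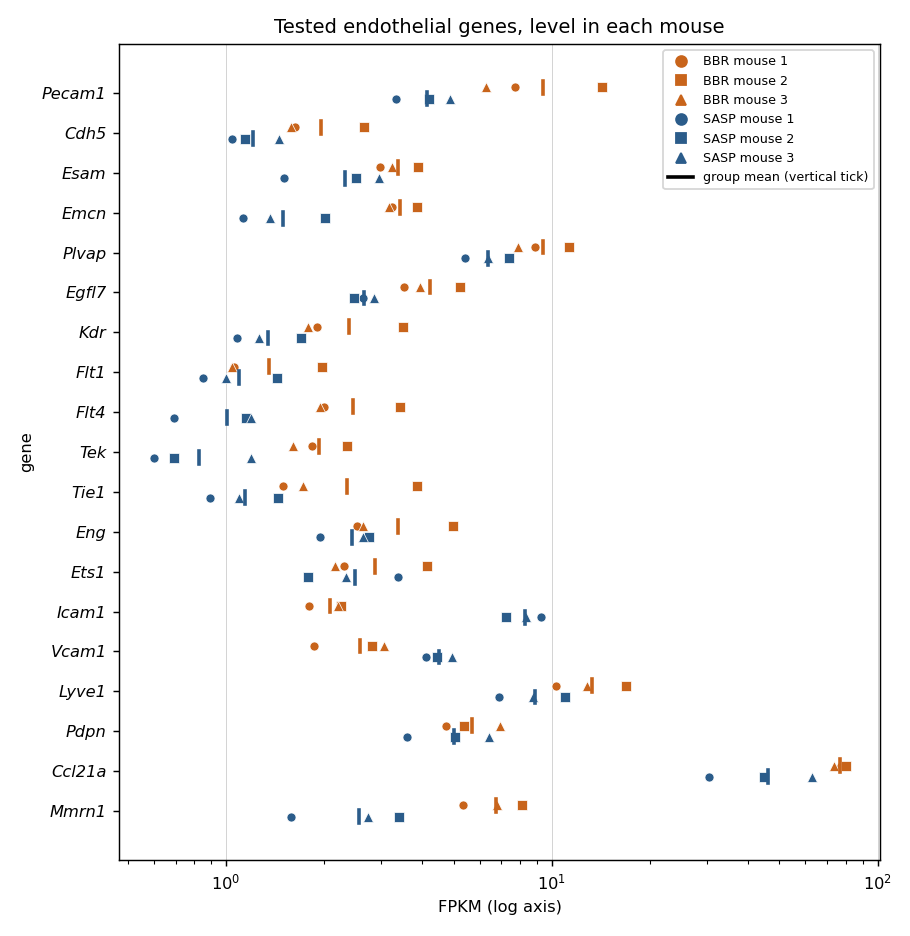
FPKM in each mouse (horizontal log axis) for the 19 tested endothelial genes, with BBR in orange, SASP in blue, a symbol for each mouse and a vertical tick at the group mean. Icam1 and Vcam1 are the genes with all BBR mice below all SASP mice, and BBR mouse 2 lies far to the right in Pecam1 (14.2 FPKM).

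The libraries were of similar size. The approximate depth, estimated from genes seen in 1 mouse only, was 16400000 to 18200000 reads, and 11518 to 12307 genes reached 1 FPKM. In a principal component analysis the drugs separated along the first axis (60.4% of variance), while BBR mouse 3 stood apart on the second (25.4%). Array quality weights gave BBR mouse 1 the highest weight, 5.32, and SASP mouse 3 a weight of 4.85. The remaining mice had 0.129 to 0.746, with BBR mouse 3 lowest. The weighted fit therefore rests mainly on BBR mouse 1 and SASP mouse 3, and it called 7126 of all 12072 tested genes. Values were not copies between mice, with at most 0.389% of tested genes identical in any pair.

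Among the adhesion molecules, Icam1 passed the threshold. Icam1 (Gene ID 15894) encodes ICAM-1, the ligand of leukocyte beta-2 integrins, and is also made by epithelial cells, fibroblasts and leukocytes. It was at 1.80, 2.25 and 2.21 FPKM in BBR mice 1, 2 and 3 and at 9.24, 7.23 and 8.34 FPKM in SASP mice 1, 2 and 3. The groups were far apart. In FPKM, the SASP mean was 3.96 times the BBR mean. The log2 fold change, taken on FPKM + 1, was -1.58 (SE 0.14, limma adjusted p = 0.00341). When single mice were left out it ranged from -1.67 to -1.51, and over all alternatives the adjusted p was 2.2e-05 to 0.0373. The promoter shown above, with its NF-kB type and GAS matches, belongs to this gene.

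Vcam1 (22329) encodes VCAM-1, the ligand of integrin alpha-4 beta-1, and is also made by stromal cells and macrophages. It was at 1.86, 2.81 and 3.06 FPKM with BBR and at 4.12, 4.44 and 4.94 FPKM with SASP, so the groups did not overlap. The log2 fold change was -0.63 (SE 0.17, limma adjusted p = 0.0618), short of the threshold. It passed with quantile normalization, with median-ratio scaling, with array quality weights and without BBR mouse 3, with log2 fold changes of -0.75, -0.73, -0.96 and -0.73.

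The other adhesion molecules lay below the filter, and their groups overlapped. Madcam1, the addressin that brings integrin alpha-4 beta-7 lymphocytes to the gut, was between 0.88 and 2.16 FPKM with BBR and between 0.80 and 1.12 FPKM with SASP, with its highest value in BBR mouse 3. Icam2, which resting endothelium makes, was between 0.81 and 1.21 FPKM with BBR and between 0.57 and 1.2 FPKM with SASP. Selp, the P-selectin gene, was between 0.19 and 0.67 FPKM with BBR and between 0.01 and 0.24 FPKM with SASP. Sele, the E-selectin gene, was at most 0.12 FPKM in any mouse, which is about 5.85 reads at the approximate depth, and it was listed at 0 in SASP mouse 1. A difference in Sele was therefore not detectable at this depth.

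**Figure D2:**
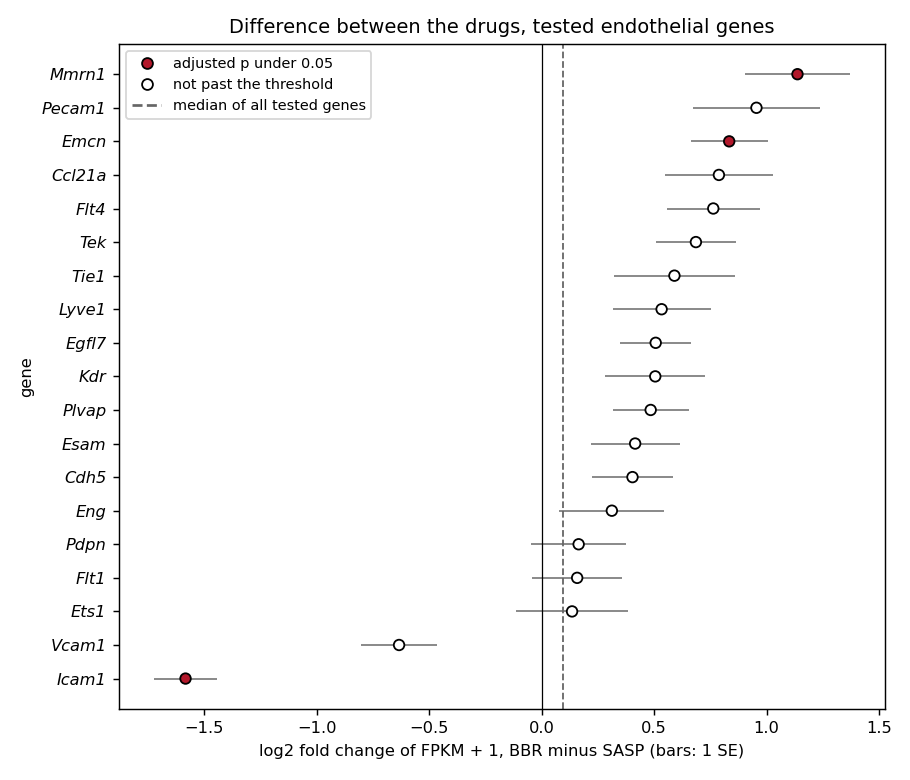
Log2 fold change of FPKM + 1 (BBR minus SASP, horizontal axis) for the 19 tested endothelial genes, with bars of 1 SE, filled points for an adjusted p under 0.05 and a dashed line at the median of all tested genes (0.10). Icam1 at -1.58 and Vcam1 at -0.63 lie on the left, and Mmrn1 at 1.14 and Emcn at 0.83 are the filled points on the right.

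Of the junction and surface genes of blood vessels, Emcn passed the threshold. Emcn (59308) encodes endomucin, found on capillaries and veins. It was at 3.23, 3.87 and 3.16 FPKM with BBR and at 1.13, 2.01 and 1.36 FPKM with SASP. No BBR mouse came below 3 FPKM, and no SASP mouse exceeded 2.01 FPKM. The log2 fold change was 0.83 (SE 0.17, limma adjusted p = 0.0351). The call was lost with no filter and without BBR mouse 1, BBR mouse 2, SASP mouse 1 or SASP mouse 3, with log2 fold changes of 0.73 to 0.98 over all left-out mice.

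Pecam1 (18613), the CD31 gene, is carried by all endothelium and by platelets and some leukocytes. It was at 7.71, 14.2 and 6.26 FPKM with BBR and at 3.32, 4.20 and 4.88 FPKM with SASP, with no overlap. Its log2 fold change was 0.96 (SE 0.28, limma adjusted p = 0.0746), and it was 0.64 without BBR mouse 2, the highest animal. The threshold was met when BBR mouse 3 was left out (1.18) and with array quality weights (0.71).

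Plvap (84094), which forms the diaphragms of fenestrated capillaries, had the highest mean of these genes over all 6 mice, while the BBR means of Plvap and Pecam1 were 9.37 and 9.40 FPKM. It was at 8.89, 11.3 and 7.88 FPKM with BBR and at 5.40, 7.38 and 6.37 FPKM with SASP. The lowest BBR mouse and the highest SASP mouse were close, and the log2 fold change was 0.48 (SE 0.17, limma adjusted p = 0.106). Egfl7, a secreted endothelial matrix factor, lay between 3.51 and 5.23 FPKM with BBR and between 2.47 and 2.84 FPKM with SASP. Cdh5, the VE-cadherin gene, lay between 1.58 and 2.65 FPKM with BBR and between 1.04 and 1.45 FPKM with SASP. Esam, another junction gene, lay between 2.97 and 3.88 FPKM with BBR and between 1.51 and 2.94 FPKM with SASP. These 3 genes also had no overlap and adjusted p-values of 0.0830, 0.176 and 0.196 in limma. The log2 change of Cdh5 was 0.40, or 0.24 without BBR mouse 2, and that of Esam was 0.42, or 0.23 without SASP mouse 1.

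A pair of surface genes lay below the filter. Vwf, the von Willebrand factor gene, was between 0.95 and 1.74 FPKM with BBR and between 0.41 and 0.89 FPKM with SASP. Nos3, the endothelial nitric oxide synthase gene, was between 0.30 and 0.64 FPKM with BBR and between 0.23 and 0.36 FPKM with SASP. The groups were apart for Vwf and overlapped for Nos3.

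Receptors of vessel growth did not pass the threshold. Eng (13805) encodes endoglin, a co-receptor for BMP and TGF-beta ligands, and was at 2.52, 4.98 and 2.64 FPKM with BBR and at 1.95, 2.74 and 2.63 FPKM with SASP. BBR mice 1 and 3 lay within the SASP range, and BBR mouse 2 alone stood above it (log2 change 0.31, limma adjusted p = 0.382; 0.065 without BBR mouse 2). Kdr (16542), the gene of VEGF receptor 2, was at 1.90, 3.50 and 1.78 FPKM with BBR and at 1.08, 1.70 and 1.26 FPKM with SASP (log2 change 0.51, limma adjusted p = 0.168; 0.28 without BBR mouse 2). Its groups were apart by a small margin, 1.70 against 1.78 FPKM.

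Flt4 encodes VEGF receptor 3, which in adult tissue marks lymphatic vessels. Its BBR values of 1.94 to 3.41 FPKM lay above its SASP values of 0.69 to 1.19 FPKM (log2 change 0.76, SE 0.21, limma adjusted p = 0.0634). It passed the threshold with quantile normalization (0.63), with median-ratio scaling (0.68), with array quality weights (0.55) and without BBR mouse 3 (0.87). Tek, the Tie2 gene, lay at 1.60 to 2.35 FPKM with BBR and at 0.60 to 1.19 FPKM with SASP (log2 change 0.69, SE 0.18, limma adjusted p = 0.0596), the smallest adjusted p of a member short of the threshold. It passed without BBR mouse 3 (0.77) and with array quality weights (0.48). For both Flt4 and Tek the BBR group alone was at 1 FPKM or more throughout, so they met the filter through the group where they were high.

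Tie1, the orphan relative of Tek, lay at 1.5 to 3.86 FPKM with BBR and at 0.89 to 1.44 FPKM with SASP (log2 change 0.59, limma adjusted p = 0.182; 0.29 without BBR mouse 2). Flt1, the gene of VEGF receptor 1, overlapped at 1.04 to 1.97 and 0.85 to 1.43 FPKM, and its estimate of 0.16 turned to -0.021 without BBR mouse 2. Below the filter, the apelin receptor gene Aplnr was between 0.29 and 1.15 FPKM with BBR and between 0.04 and 0.17 FPKM with SASP, with no overlap. Robo4, which restrains vessel leak, overlapped at 0.68 to 1.70 and 0.45 to 0.69 FPKM. Within the receptors, BBR mouse 2 held the highest value in 8 of 8 genes, as it did in 28 of all 35 members.

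The ligands were scarce, with 3 of 3 below the filter. Angpt1 (11600), which stabilises vessels through Tie2, was at 0.54, 1.08 and 0.48 FPKM with BBR and at 0.51, 0.47 and 1.03 FPKM with SASP. Each group held 1 mouse near 1 FPKM, and the groups overlapped. Angpt2 (11601), the context-dependent antagonist released by activated endothelium, was at 0.30, 0.83 and 0.42 FPKM with BBR and at 0.19, 0.24 and 0.19 FPKM with SASP. All BBR mice stood above all SASP mice in this gene, with BBR mouse 2 farthest. Apln, the apelin gene of sprouting tip cells, overlapped at 0.17 to 0.56 and 0.23 to 0.28 FPKM.

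Among the transcription factors Ets1 was the 1 gene tested. Ets1 (23871), which lymphocytes make as well, was at 2.31, 4.14 and 2.16 FPKM with BBR and at 3.37, 1.79 and 2.33 FPKM with SASP. Its groups overlapped, and the estimate of 0.14 (SE 0.25, limma adjusted p = 0.731) changed sign without BBR mouse 2 (-0.088) or SASP mouse 2 (-0.015). Sox18 (20672), a SoxF factor of arteries and early lymphatic vessels, was at 1.18, 1.68 and 0.89 FPKM with BBR and at 0.48, 0.64 and 0.61 FPKM with SASP. Sox17, its arterial relative, was at 0.20 to 0.24 FPKM with BBR and at 0.08 to 0.18 FPKM with SASP. The groups of both Sox genes were apart, whereas those of the ETS family genes Erg and Fli1 overlapped, at 0.67 to 1.12 against 0.28 to 0.74 FPKM and at 0.65 to 1.03 against 0.42 to 0.89 FPKM.

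**Figure D3:**
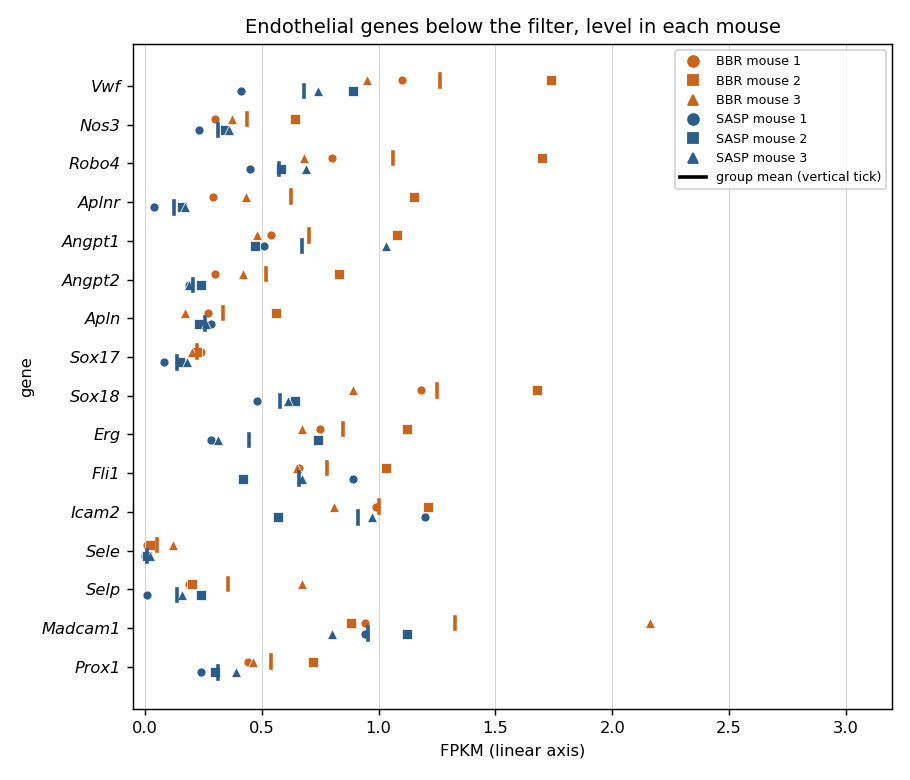
FPKM in each mouse (horizontal linear axis) for the 16 endothelial genes below the filter, with BBR in orange, SASP in blue, a symbol for each mouse and a vertical tick at the group mean. BBR lies above SASP without overlap in Vwf, Aplnr, Angpt2, Sox17, Sox18 and Prox1, and Madcam1 is high in BBR mouse 3 alone (2.16 FPKM).

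Of the 16 genes below the filter, 6 (37.5%) had all BBR values above all SASP values, against 13.1% of all genes below it. None of the 16 passed the threshold when limma was run with no filter, where the smallest adjusted p among them was that of Sox18, 0.102 (log2 change 0.50).

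Among the tested members, the largest estimate above 0 on the log2(FPKM + 1) scale was that of a lymphatic gene. Mmrn1 (70945) encodes multimerin 1, made by lymphatic endothelium and stored in platelets. It was at 5.33, 8.11 and 6.78 FPKM with BBR and at 1.58, 3.39 and 2.72 FPKM with SASP. The highest SASP mouse lay well under the lowest BBR mouse. The log2 fold change was 1.14 (SE 0.23, limma adjusted p = 0.0354). The call was lost with no filter and in each fit that left out a mouse, except the one without BBR mouse 3, while the log2 fold change stayed within 0.92 and 1.31.

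Ccl21a (18829), the chemokine that draws CCR7-bearing dendritic cells and T cells, was the most abundant member. It was at 77.4, 79.8 and 73.5 FPKM with BBR and at 30.3, 44.7 and 63.1 FPKM with SASP. The BBR mice were close together, and the SASP mice were lower and spread widely (log2 change 0.79, SE 0.24, limma adjusted p = 0.0805; 0.53 without SASP mouse 1). Ccl21a has near-identical copies. Ccl21c and 3 predicted genes, Gm10591, Gm13304 and Gm21541, were listed with the same value as each other in every mouse, between 2.96 and 7.42 FPKM, so the division of reads among them is uncertain. The sum of all 5 was 98.7, 98.0 and 103 FPKM with BBR and 42.2, 59.1 and 85.5 FPKM with SASP, which leaves the groups apart. Stromal cells of lymphoid tissue make this chemokine as well.

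Lyve1 (114332), a hyaluronan receptor of lymphatic capillaries and of some macrophages, was at 10.3, 16.9 and 12.8 FPKM with BBR and at 6.88, 11.0 and 8.74 FPKM with SASP. BBR mouse 1 lay below SASP mouse 2, so the groups overlapped (log2 change 0.53, SE 0.22, limma adjusted p = 0.148). Pdpn, the podoplanin gene, which fibroblasts share, overlapped at 4.74 to 6.92 and 3.59 to 6.41 FPKM. Its estimate was 0.16 (adjusted p = 0.617 in limma), which turned to -0.23 with array quality weights and to -0.017 without SASP mouse 1. Prox1, the transcription factor that sets lymphatic identity and is also made by some enteroendocrine cells, lay below the filter at 0.44 to 0.72 FPKM with BBR and 0.24 to 0.39 FPKM with SASP, with no overlap.

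The defining markers of blood and lymphatic endothelium are members themselves, so their levels describe the list and are no independent check of its label. The 10 blood endothelial markers (Pecam1, Cdh5, Kdr, Flt1, Tie1, Emcn, Esam, Egfl7, Plvap and Erg) were above 0 in every mouse. Their summed level was 33.2, 51.6 and 31.3 FPKM with BBR and 18.1, 25.0 and 23.5 FPKM with SASP. The 6 lymphatic markers (Lyve1, Prox1, Pdpn, Ccl21a, Flt4 and Mmrn1) summed to 100.2, 114 and 102 FPKM with BBR and to 43.3, 65.5 and 82.5 FPKM with SASP, of which Ccl21a made up 72.6%. Without Ccl21a the sums were 22.8, 34.5 and 28.9 FPKM against 13.0, 20.9 and 19.5 FPKM. All BBR mice stood above all SASP mice in each of these sums.

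Other genes of endothelium and vessel growth were counted from lists set by function, with earlier results of these data known. They are therefore no independent check of the members. Of 62 such genes in the table, 43 met the filter, and 5 of the 43 (11.6%) rose under BBR while 0 fell at the limma threshold, where 3.82% and 5.04% of all tested genes did. At an unadjusted p of at most 0.05 there were 17 higher (39.5%) and 3 lower (6.98%), against 18.4% and 13.4% of all tested genes. All 5 belonged to the list of 25 endothelial surface and junction genes, and which cells of the tissue made them was not measured. Tfpi, an inhibitor of coagulation, was at 7.21, 7.08 and 7.64 FPKM with BBR and at 3.69, 3.91 and 3.36 FPKM with SASP (log2 change 0.84, SE 0.12, limma adjusted p = 0.0141). Aqp1, the water channel of capillaries, was at 9.03, 12.4 and 10.4 FPKM with BBR and at 2.16, 4.37 and 3.79 FPKM with SASP (log2 change 1.41, SE 0.22, limma adjusted p = 0.0187). The groups overlapped in neither gene.

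Ece1, which matures endothelin, had a mean of 33.4 ± 3.87 FPKM with BBR and 18.5 ± 2.31 FPKM with SASP (n = 3 each, SD; limma adjusted p = 0.0205). Completing the count, Cldn5, the tight junction claudin of endothelium, was at 3.29 ± 0.796 and 1.08 ± 0.471 FPKM, and Gpihbp1, which anchors lipoprotein lipase in capillaries, at 2.41 ± 0.370 and 1.16 ± 0.185 FPKM (SD, n = 3 each; limma adjusted p = 0.0354 and 0.0431). Each of the 5 calls was lost without BBR mouse 1, SASP mouse 1 or SASP mouse 3. All except that of Tfpi were lost without BBR mouse 2 too. Those of Cldn5 and Gpihbp1 were also lost without SASP mouse 2 and with no filter, and that of Gpihbp1 with quantile normalization. For Cldn5 and Gpihbp1 the BBR group alone was at 1 FPKM or more throughout, and both are counted among the 5 calls. The median log2 fold change of the surface and junction genes tested was 0.66. It was 0.45 for the VEGF family and co-receptor genes, 0.17 for Notch and ephrin genes, 0.41 for adrenomedullin and sphingosine genes and 0.31 for transcription factors, with 0 genes called in these lists.

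**Figure D4:**
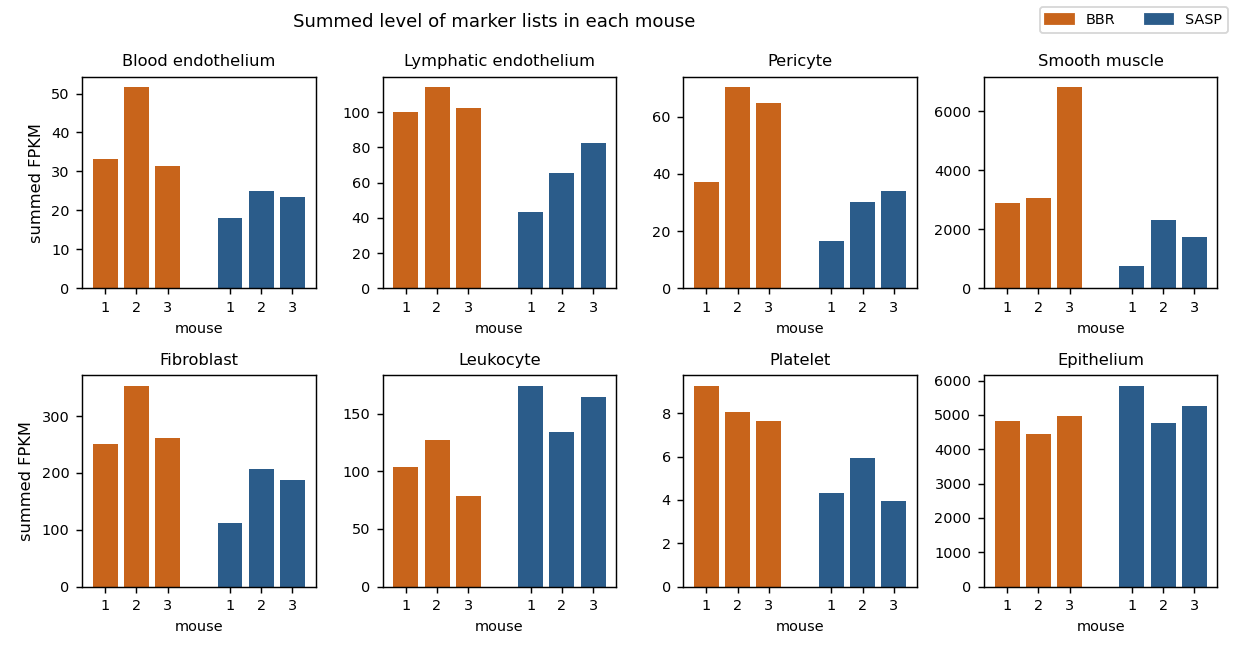
Summed FPKM of 8 marker lists in each mouse (vertical axes from 0, 1 scale per panel), with BBR in orange and SASP in blue. Blood and lymphatic endothelium, pericytes, smooth muscle, fibroblasts and platelets are higher in all BBR mice than in any SASP mouse, leukocytes are lower, and epithelium overlaps. Without the most abundant gene of each list, pericytes, platelets and leukocytes overlap as well.

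Summed markers of pericytes, smooth muscle and fibroblasts were also higher in every BBR mouse than in any SASP mouse, and their part in these results was not tested. The median log2 fold changes of their tested genes were 0.75, 1.29 and 0.82, each above the 0.51 of the tested members. Pericyte markers, 5 of 8 tested and 0 called, summed to 37.1 to 70.3 FPKM with BBR and 16.6 to 33.9 FPKM with SASP, with Rgs5 and Abcc9 most abundant. Without Rgs5 the pericyte sums overlapped, at 15.3 to 27.6 and 7.42 to 15.4 FPKM. Smooth muscle markers, 11 of 11 tested and 0 called, summed to 2889 to 6811 FPKM with BBR and 758 to 2323 FPKM with SASP. The highest sum was that of BBR mouse 3, the mouse with the lowest sum of blood endothelial markers within its group. Fibroblast markers, 8 of 8 tested and 3 (Col1a1, Lum and Thy1) called higher, summed to 251 to 354 FPKM with BBR and 112 to 208 FPKM with SASP. In this list, as in blood and lymphatic endothelium and in pericytes, BBR mouse 2 had the highest full sum and SASP mouse 1 the lowest. SASP mouse 1 was also lowest in smooth muscle markers. Likeness of these orders between lists was not tested.

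Summed leukocyte markers, which bear on Pecam1, Icam1 and Ets1, were lower in every BBR mouse than in any SASP mouse, and their part in these results was not tested. Of 10 markers, 8 were tested and 0 called, and they summed to 78.9 to 127 FPKM with BBR and 134 to 174 FPKM with SASP. Lyz2 made up 69.7% of this sum, and without it the groups overlapped, at 19.7 to 34.3 FPKM with BBR and 32.0 to 75.1 FPKM with SASP. Platelet markers, which bear on Mmrn1, Selp and Vwf, summed to 7.64 to 9.28 FPKM with BBR and 3.96 to 5.94 FPKM with SASP. Pf4 made up 82.1% of it and was the 1 of 6 tested, called higher (log2 change 0.80, limma adjusted p = 0.0434). Macrophages make Pf4 too. The other 5 platelet genes lay below the filter, and their sums overlapped, at 1.1 to 1.6 and 0.97 to 1.19 FPKM.

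Red blood cell markers overlapped, at 15.4 to 33.1 FPKM with BBR and 5.33 to 68.2 FPKM with SASP, with 4 of the 6 listed tested and 0 called. Epithelial markers overlapped too, at 4442 to 4968 FPKM and 4757 to 5855 FPKM, with 1 called higher (Krt18) and 1 lower (Vil1) of 7. The 5 mesothelial markers, which bear on Pdpn, were below the filter and summed to at most 2.35 FPKM in any mouse.

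**Figure D5:**
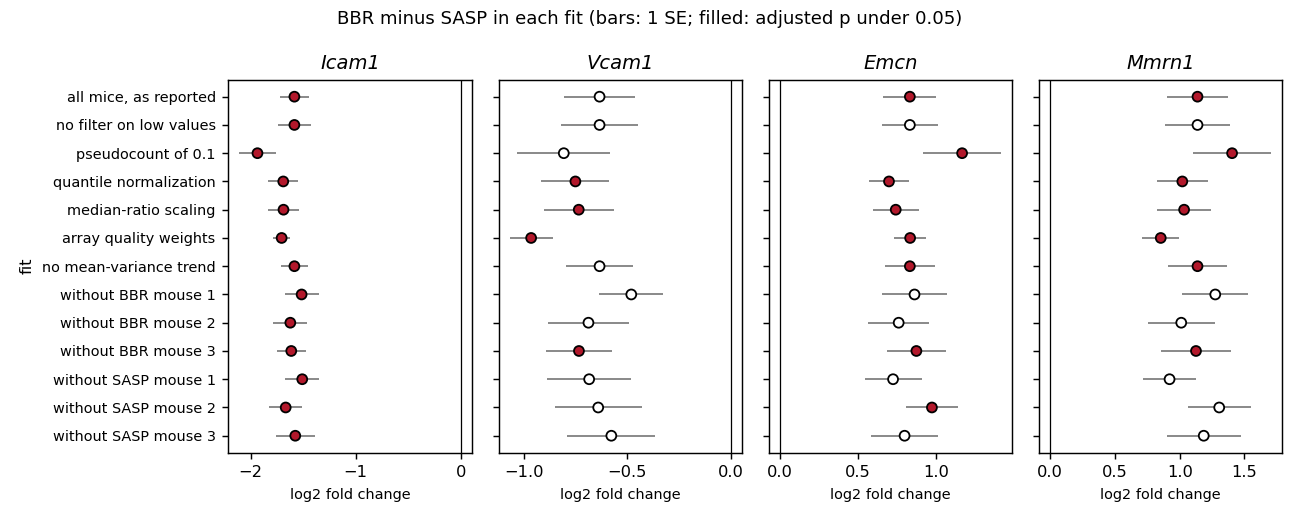
Log2 fold change (BBR minus SASP, horizontal axes, 1 scale per panel) of Icam1, Vcam1, Emcn and Mmrn1 in the reported fit and in 12 alternatives (vertical axis), with bars of 1 SE and filled points for an adjusted p under 0.05. Icam1 is filled in every fit, whereas Emcn and Mmrn1 are open with no filter and in most fits that leave out a mouse, and no point crosses 0.

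The plot of fits by gene sets these differences side by side. Icam1 passed in 12 of 12 alternatives, Emcn in 7, Mmrn1 in 6 and Vcam1 in 4. Without BBR mouse 3, the library that the second principal component set apart, 8 of the 19 tested members passed, 6 higher (31.6%) and 2 lower (10.5%). In that fit 22.3% of all tested genes were called higher and 11.5% lower, so that calls increased among all genes as well. Without BBR mouse 1, BBR mouse 2, SASP mouse 1 or SASP mouse 3, 1 passed in each fit, Icam1.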

How the data were processed

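RNA sequencing had been performed on colorectal tissue of 3 BBR and 3 SASP colitis mice. The treatment label assigned each mouse to its group. The deposited table gives FPKM per gene and mouse, which the authors calculated with RSEM (1.2.12) after filtering reads with SOAPnuke and aligning them with Bowtie2 (2.2.5). The submitters' processing notes name mm9 as a genome build, with no annotation. The study describes short single-end reads after ribosomal RNA depletion, whereas the labels name a TruSeq kit.

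Since FPKM are not counts, count models were not applied. Values were transformed as log2(FPKM + 1), which understates changes of low genes, and genes at 1 FPKM or more in at least 3 of 6 samples were fitted with limma 3.58.1 (R 4.3.3), using empirical Bayes with a trend in the variance. Two-sided p-values were adjusted by the Benjamini-Hochberg method over all 12072 genes, with a threshold of 0.05. They set the difference between groups against the spread between mice within the groups, moderated over all genes. An exact permutation test of 3 against 3 cannot pass that threshold and was not used.

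The members and lists were chosen with earlier results of these data known. Values in every mouse were given for members past the threshold and for the 2 most abundant of each role, and the other members by their range. Of the other lists, up to 3 called genes by p and at most 2 abundant markers were named, and further names (Cldn5 and Gpihbp1 among them) were added after their values were seen, to complete a count or to give a limit. Read totals were not analysed here. Approximate depth assumes that the typical value of a gene seen in 1 mouse only, with a GENCODE M21 transcript under 1500 bases, is 1 read. Alternatives were no filter, a pseudocount of 0.1, quantile normalization, median-ratio scaling, array quality weights, no trend, each mouse left out and an unadjusted p. Marker sums without their most abundant gene were added after the values were seen. Promoter sequences are RefSeq's on GRCm38.p6 and were not joined to coordinates of the files.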

Additional observations from a re-analysis of the deposited data

How the results depend on the processing

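Of all genes tested, 1069 were called (43.1% higher). The number was 608 with no filter, 1737 with quantile normalization, 1683 with median-ratio scaling (29.6% higher), 7126 with array quality weights (65.1% higher) and 3837 at an unadjusted p of at most 0.05. It ranged from 51 without SASP mouse 3 to 4018 without BBR mouse 3. Median-ratio scaling moved the median over all tested genes from 0.10 to -0.02 and that of the tested members from 0.51 to 0.40. The 3 called members became 1 with no filter, 5 with quantile normalization or median-ratio scaling, 10 with array quality weights and 11 unadjusted, and 1 (without BBR mouse 1, for example) to 8 (without BBR mouse 3) when a mouse was left out. The 5 called other endothelial genes became 26 with array quality weights, 20 unadjusted and 0 to 15 with a mouse left out. With array quality weights 7126 of all 12072 tested genes passed, beside 10 of 19 members (52.6%) and 26 of 43 other endothelial genes. The rise in that fit was therefore not particular to the endothelial genes. The median of the members ranged from 0.31 with array quality weights to 0.62 with a pseudocount of 0.1, and from 0.33 to 0.60 with a mouse left out. Each value lay within 0.21 of the reported 0.51. The 0.21 is the SD between mice within groups of the median member level per mouse (log2 scale), not a spread of the fold change. Among the members' values under alternatives, 196 kept direction and side of the threshold, 16 newly passed, 11 no longer passed and 5 changed sign. These 5 were Flt1 without BBR mouse 2 (-0.021), Ets1 without BBR mouse 2 (-0.088) or SASP mouse 2 (-0.015), and Pdpn with array quality weights (-0.23) or without SASP mouse 1 (-0.017). With a mouse left out these genes reached at most 0.27, 0.31 and 0.33. The causes were not tested. No paired analysis was possible because the labels give the groups no shared replicate numbers. With 3 mice a group and most members below 10 FPKM, moderate differences could be missed.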

Other observations

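Beyond the endothelial members, a few vessel-related genes were identified after their values were seen. Adm, the gene of the vessel-relaxing peptide adrenomedullin, was at 7.01, 8.53 and 10.58 FPKM with BBR and at 19.6, 10.61 and 17.3 FPKM with SASP (log2 change -0.77, SE 0.24, limma adjusted p = 0.0854). The highest BBR mouse lay just under the lowest SASP mouse. Its receptor genes Calcrl and Ramp2 had estimates of the opposite sign, 0.58 and 0.52 (adjusted p = 0.0679 and 0.153 in limma), and 0 of the 3 passed the threshold. The difference between ligand and receptor estimates was not tested.

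Vegfa, the main growth factor of blood vessels, was the most abundant of its family, at 43.7, 46.6 and 36.4 FPKM with BBR and at 44.3, 45.3 and 58.1 FPKM with SASP, with overlapping groups (log2 change -0.21, SE 0.15, limma adjusted p = 0.348). Vegfc, which drives lymphatic growth, was at 2.34 ± 0.471 and 2.32 ± 0.0781 FPKM (SD, n = 3 each). Nrp2, the co-receptor that lymphatic vessels carry for VEGF-C, was at 9.80, 17.2 and 12.7 FPKM with BBR and at 3.57, 7.09 and 8.03 FPKM with SASP, with no overlap and short of the threshold (log2 change 1.00, SE 0.30, limma adjusted p = 0.0762). Nrp2 is not confined to vessels and is made by smooth muscle and nerves as well.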
